A study of Mus musculus with 8 samples.

Results

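Hox genes encode homeodomain transcription factors that give cells along the body axis their positional identity. In the mouse they stand in 4 clusters, HoxA to HoxD, in which all genes point the same way and the order along the chromosome follows the order of use along the body. Genes with the same number in different clusters are paralogues, low numbers being used towards the head (anterior) and high numbers towards the tail and the ends of the limbs (posterior). Polycomb proteins keep unused clusters compact, Trithorax proteins hold used genes active, retinoic acid opens the anterior end, and TALE proteins of the Pbx and Meis families bind DNA together with Hox proteins. Hoxa3 is needed in the third pharyngeal pouch, from which the thymus forms, so the clusters are of interest in thymic epithelium.

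The genes were taken as the protein-coding genes of the GENCODE M21 annotation (mouse build mm10) whose symbols join Hox, a cluster letter and a number, which gave 39 of 21938 protein-coding genes: 11 in HoxA, 10 in HoxB, 9 in HoxC and 9 in HoxD. Open chromatin was measured by ATAC-seq, an assay that uses the Tn5 transposase to cut and tag accessible DNA, in medullary thymic epithelial cells (mTECs) sorted from the thymus of wild-type mice aged 4 to 6 weeks. The 4 sorted groups were Tspan8neg MHCIIlow, Tspan8pos MHCIIlow, Tspan8neg MHCIIhigh and Tspan8pos MHCIIhigh, with 2 biological replicates each and 8 samples in all. Tspan8 is a tissue-restricted antigen that the study used to mark antigen-positive cells, and MHC class II separates MHCIIhigh mature mTECs from MHCIIlow cells, which hold early mTECs and late ones that have lowered it again. All groups shared the wt genotype, and no further treatment is given. These are bulk preparations of sorted cells, in which fewer open cells and weaker opening per cell cannot be told apart.

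The 8 columns of counts could not be tied to the samples' labels, so no group was compared and no test was run. The counts were not used at all, so depth and the strength of the signal in each region are not given. What is described is the consensus set of 57124 regions called open by the authors: where regions lie and how wide they are. Absence from this set says that no region was listed at a place, not that its chromatin was closed in every cell, and the peaks called were merged into 1 set by the authors with no minimum number of samples stated. Intervals on medians are order-statistic intervals for the median that treat regions as independent. They do not measure the spread among samples. A region was assigned to a Hox gene when it overlapped the gene or the 5 kb on either side, and, where several Hox genes qualified, to the one with the nearest start. The rule gave 39 regions of 57124, a number that equals the number of genes by coincidence. A promoter region is one whose centre lies between 1000 bases upstream and 100 bases downstream of an annotated transcript start. Only starts of transcripts in the basic set of the annotation were used, and these can differ from the start of the gene record.

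The cell type label was checked in the same way. Of 12 mTEC markers, 11 had a promoter region, the exception being Relb. A promoter region was listed at 1 of 12 thymocyte markers (Bcl11b), 1 of 10 fibroblast markers (Twist1) and 1 of 8 endothelial markers (Kdr), and at none of Cd3e, Cd4, Rag1, Ptprc, Pdgfrb, Pecam1 and Cdh5. Within 1000 bases of a start the counts were 12 of 12 for mTEC, 1 of 12 for thymocyte, 4 of 10 for fibroblast and 2 of 8 for endothelial markers. Of 6 markers of cortical thymic epithelium, 4 had a promoter region and 5 a region within 1000 bases. Over all protein-coding genes the shares under these 2 rules were 48.6% and 63.1%. The part that other cells of the sort took in the Hox regions was not tested.

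Regions were listed at 29 of the 39 Hox genes, but at the promoter of 10. Across all protein-coding genes 48.6% had a promoter region, against 25.6% of Hox genes. HoxA held 5 of the 10 genes, among them Hoxa2, Hoxa4, Hoxa5 and Hoxa13, HoxB held Hoxb5, HoxC held Hoxc10 and Hoxc13, and HoxD held Hoxd3 and Hoxd11. The 3 sequences that follow are the parts of 3 of these regions that lie upstream of the gene start and outside every annotated untranslated region. They are shown because they are the stretches listed as open at a promoter of 3 different clusters. They also show the density of CpG, in capitals, that sets promoter regions, of Hox genes or others, apart from most open DNA in this set. It does not set Hox promoter regions apart from the other Hox regions. The median ratio of observed to expected CpG was 0.834 at the 10 promoter regions and 0.828 at the other 29. All were read from the mm10 genome, 5′ to 3′ on the strand of the gene: the whole Hoxa4 region (chr6:52191840-52192053, minus strand), the whole Hoxb5 region (chr11:96303187-96303285, plus strand) and the 286 upstream bases of the Hoxc13 region (chr15:102920817-102921102, plus strand).
Hoxa4: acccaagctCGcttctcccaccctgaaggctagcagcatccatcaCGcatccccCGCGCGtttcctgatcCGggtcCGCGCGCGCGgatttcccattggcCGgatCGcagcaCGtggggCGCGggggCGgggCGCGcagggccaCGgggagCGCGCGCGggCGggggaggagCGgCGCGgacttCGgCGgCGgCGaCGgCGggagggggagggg
Hoxb5: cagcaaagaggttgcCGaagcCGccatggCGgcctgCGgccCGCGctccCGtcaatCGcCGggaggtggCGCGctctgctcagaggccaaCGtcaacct
Hoxc13: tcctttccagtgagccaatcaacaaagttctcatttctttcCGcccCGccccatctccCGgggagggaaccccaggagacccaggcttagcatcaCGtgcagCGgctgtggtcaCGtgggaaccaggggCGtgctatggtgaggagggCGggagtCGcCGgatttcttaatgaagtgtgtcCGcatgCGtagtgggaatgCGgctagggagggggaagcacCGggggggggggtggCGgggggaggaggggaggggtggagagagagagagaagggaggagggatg

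Hoxa4, active in the neck region of the embryo, had the densest of the 3, with 34 CpG in 214 bases (15.9 per 100 bases). The 99 bases at Hoxb5 held 12 CpG (12.1 per 100). Hoxc13, known for its part in hair and nail formation, had 15 in 286 bases (5.24 per 100). CpG density thus ran from 5.24 to 15.9 per 100 bases, with the HoxA and HoxB stretches above that of HoxC.

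Along HoxA (chr6:52150590-52265880, the genes and 5 kb on either side, 115 kb) there were 15 regions, or 13 per 100 kb, and they covered 3.8% of the span. HoxD (chr2:74663310-74770142, 107 kb) had 10 regions, 9.36 per 100 kb, covering 2.95%. HoxC (chr15:102916103-103041852, 126 kb) had 8 regions, 6.36 per 100 kb, covering 1.38%. HoxB (chr11:96189316-96373256, 184 kb) had 7 regions, 3.81 per 100 kb, covering 0.468%, and 1 of these 7 lay over 5 kb from every Hox gene and was assigned to none. The whole genome had 2.16 regions per 100 kb and 0.659% of its bases covered, so HoxB was above the genome in number of regions and below it in bases covered. Of 27268 windows of 100 kb across the genome, 99.4% held fewer regions per 100 kb than HoxA, 97.5% fewer than HoxD, 91.5% fewer than HoxC and 76.8% fewer than HoxB. Repeats take up less of the clusters (13.3% of HoxA to 24.3% of HoxB) than of the genome (36.4%). Per 100 kb of repeat-free DNA the values were 15.0 in HoxA, 10.9 in HoxD, 7.56 in HoxC and 5.03 in HoxB against 3.39 in the genome, which kept the order of the clusters.

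**Figure D1:**
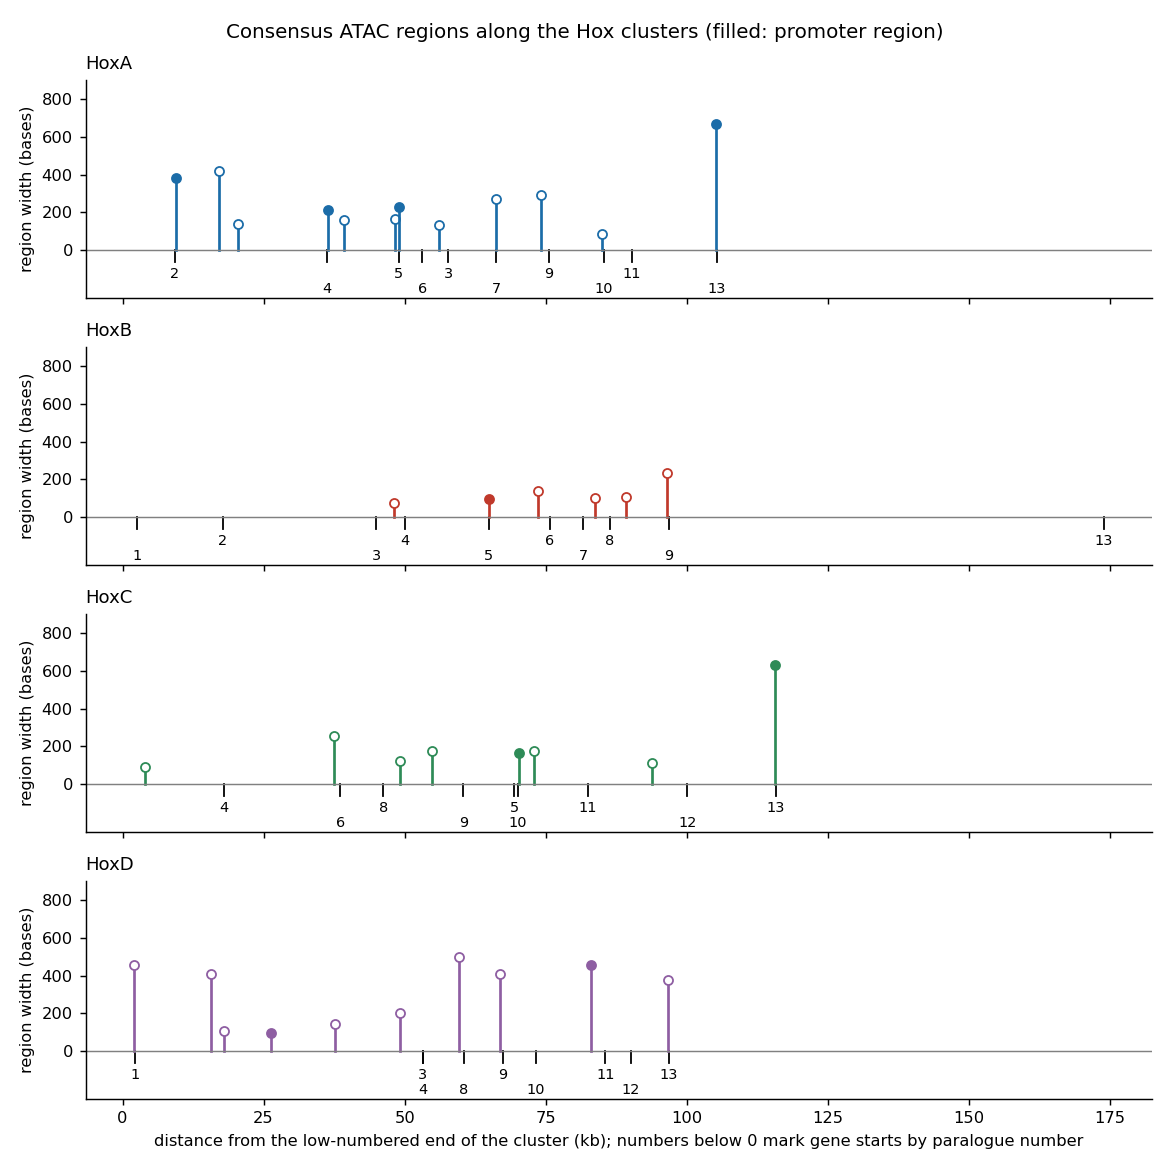
Each stem is a consensus region at its distance in kb (x axis) from the low-numbered end of its cluster, and its height is the width of the region in bases. Filled points are promoter regions, open points are other assigned regions, and ticks below 0 mark the starts of the gene records by paralogue number. Not every HoxA gene and region is drawn. HoxB regions are all at or below 234 bases and stop before paralogue 13, whereas HoxA and HoxC end in regions of 667 and 630 bases at that paralogue.

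The regions thinned out beyond 3 of the 4 clusters. In the 100 kb past the low-numbered end of HoxA no region was listed, and the nearest on that side lay 110 kb from the outermost Hox gene. In the 100 kb past the high-numbered end of HoxC there was also none, the nearest lying 159 kb away. HoxD had 1 region in the 100 kb on its low-numbered side and 3 on the other. HoxB did not stand out from its surroundings, with 4 and 3 regions in the flanking 100 kb against 3.81 per 100 kb inside. The even-skipped relatives next to the clusters had no promoter region: Evx1, 52.6 kb from HoxA, and Evx2, 8.75 kb from HoxD. Farther out, promoter regions were listed at Skap2 (967 bases, 143 kb from HoxA) and Lnpk (946 bases, 88.9 kb from HoxD), each wider than any region of a Hox gene.

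**Figure D2:**
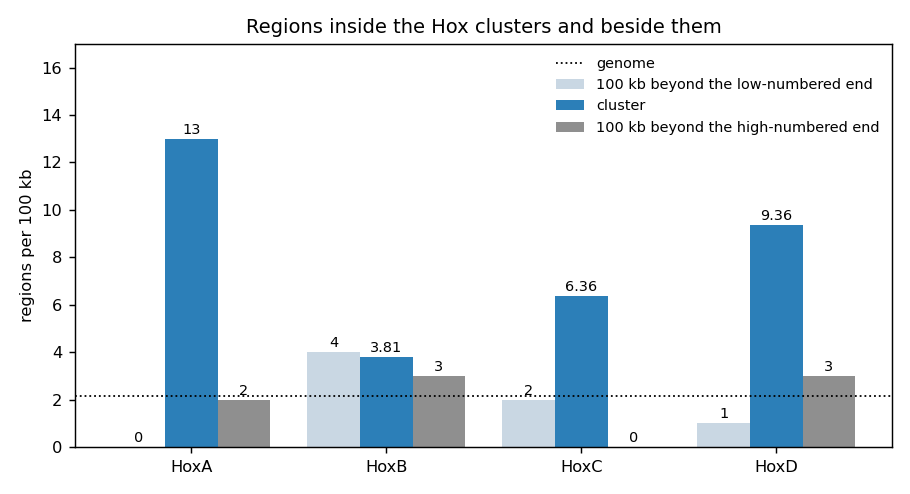
Bars give consensus regions per 100 kb (y axis) inside each cluster with 5 kb on either side and in the 100 kb beyond its low-numbered and high-numbered ends, and the dotted line is the genome at 2.16. HoxA rises from 0 and 2 in its flanks to 13, whereas HoxB, at 3.81, lies between its flanks at 4 and 3.

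Within the clusters the regions were uneven. HoxA had none for 19.8 kb between the Hoxa10 and Hoxa13 regions, a stretch that holds the starts of the Hoxa10 and Hoxa11 records, Hoxa11 being a gene of the forearm, kidney and uterus. HoxC had none for 33.3 kb between the regions of Hoxc6 and Hoxc4, a stretch that holds the start of the Hoxc4 record. It also holds the basic-set starts of Hoxc5 and Hoxc6, 14421 and 10179 bases from the centre of the Hoxc6 region. HoxD had none for 15.6 kb between the Hoxd11 and Hoxd9 regions, a stretch that holds the starts of Hoxd9 and Hoxd10. In HoxB the 82.4 kb from the edge of the span past Hoxb13 up to the Hoxb9 region held no region, and at the other end Hoxb1, Hoxb2 and Hoxb3 had none either. The nearest region to a start of Hoxb13, a gene of the prostate and tail, was centred 48524 bases away, to one of Hoxb1, a hindbrain gene, 42152 bases, and to one of Hoxb2 31485 bases. The 6 assigned HoxB regions thus lay between Hoxb4 and Hoxb9.

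Of the anterior genes (paralogues 1 to 4), 9 of 12 had a region and 4 a promoter region, and of these 4, 3 were in HoxA. Hoxa2, which sets the identity of the second pharyngeal arch, had 1 region of 383 bases at its start. Hoxa4 had its promoter region of 214 bases and another of 159 bases. Hoxd1 had a region of 454 bases over its first exon, centred 131 bases downstream of the start and so just outside the promoter rule. The Hoxd3 promoter region measured 97 bases and was centred 731 bases from the nearest of the 3 starts of the gene.

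Hoxa3, the member with the known thymus role, had no promoter region. Its long gene record overlaps Hoxa4, Hoxa5 and Hoxa6, so 7 regions lay within it, and 3 were assigned to it. These 3 measured 419, 138 and 135 bases and were centred 40459, 36986 and 1383 bases from its start. The 419-base region (chr6:52172447-52172865) overlaps an exon of Hoxa3 and lies at the start of the antisense gene Gm15050. Its paralogue Hoxb3 had no region, the nearest centre being 3180 bases from a start. Hoxd3 had 3 regions covering 612 bases. The widest, of 410 bases, lay outside the Hoxd3 record over an exon of the noncoding gene Haglr, 9894 bases from a Hoxd3 start. With the nearest start taken among all protein-coding genes, Hoxd3 kept 0 regions and Hoxa3 kept 1. Regions in this crowded stretch of HoxA overlap several gene records, and the assignment by nearest start does not show which gene a region serves.

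**Figure D3:**
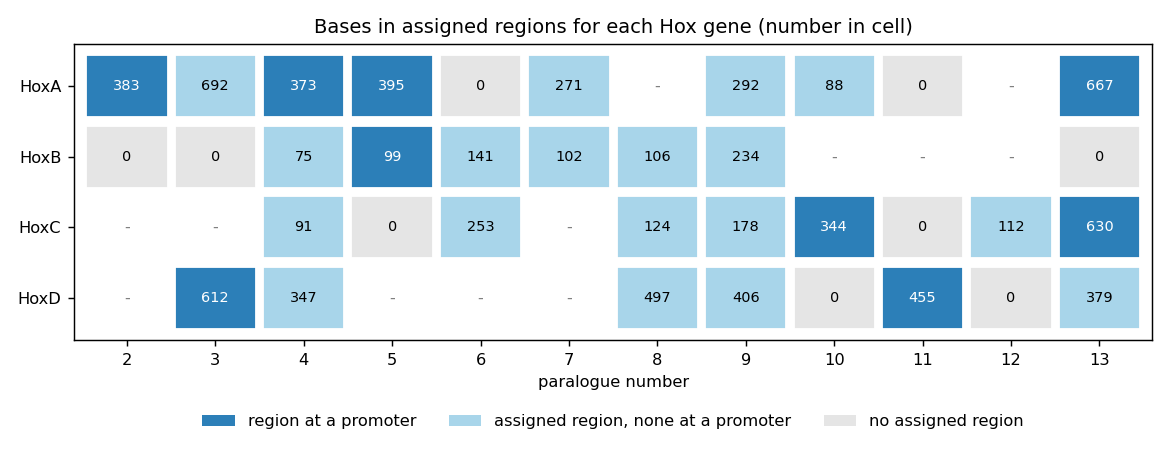
Each cell is a Hox gene by cluster (y axis) and paralogue number from 2 to 13 (x axis), and the number is the total width in bases of its assigned regions. Dark cells have a promoter region, light blue cells have regions but none at a promoter, grey cells have none, and a dash marks a combination with no gene among the 39.

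Of the central genes (paralogues 5 to 8), 9 of 11 had a region and 2 a promoter region. Hoxa5, which is needed for the lung and the airway, had its start inside a region of 229 bases, centred 27 bases downstream, and a second region of 166 bases centred 725 bases downstream over an exon. The Hoxb5 promoter region measured 99 bases. No gene of paralogue groups 6, 7 and 8 had a promoter region. The widest region among them was that of Hoxd8, 497 bases centred 310 bases downstream of a start. The 271-base region of Hoxa7 covers the start of the gene record and is centred 105 bases downstream of it. The nearest basic-set start of Hoxa7 lay 3038 bases from that centre. Hoxa6 and Hoxc5 had no assigned region. The Hoxc5 record begins close to Hoxc10 with a noncoding transcript, and from its coding start the nearest region was centred 14421 bases away.

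Of the posterior genes (paralogues 9 to 13), 11 of 16 had a region and 4 a promoter region. Paralogue group 13, the genes of the digits and the hind end of the body, was split by cluster. The region at Hoxa13 measured 667 bases, that at Hoxc13 630 bases and that at Hoxd13 379 bases, while Hoxb13 had none. Wide regions thus stood at the posterior tip of HoxA and HoxC. In group 9 all 4 members had 1 region each, of 292 bases at Hoxa9, 234 at Hoxb9, 178 at Hoxc9 and 406 at Hoxd9, and none of the 4 was a promoter region. In group 11, Hoxd11 had a promoter region of 455 bases, centred 168 bases upstream of a transcript start inside the gene, and Hoxa11 and Hoxc11 had no region. In groups 10 and 12 the regions were narrow: 88 bases at Hoxa10, 168 and 176 bases at Hoxc10 and 112 bases at Hoxc12, with none at Hoxd10 and Hoxd12. The median width was 263 bases over the 12 posterior regions, 153.5 over the 10 central ones and 159 over the 17 anterior ones, and the widths of the 3 sets overlapped.

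How the start was reached made a difference to the count. In the set, 18 regions had their centre within 1000 bases of a Hox start, 7 upstream and 11 downstream. Of the 18, 8 lay more than 100 bases downstream (44.4%), against 29.9% of the 14653 regions with their centre that close to the start of any protein-coding gene. In HoxD it was 5 of 7. They were the regions of Hoxd13 (centre 173 bases downstream), Hoxd1 (131), Hoxd8 (310), Hoxd9 (440) and Hoxd4 (375), and outside HoxD those of Hoxb9 (292), Hoxa10 (312) and the second of Hoxa5 (725). Just inside the limit stood Hoxa13, at 100 bases. When it was enough for a region to overlap the 1000 bases on either side of a start, 17 of 39 Hox genes had a region (43.6%), against 63.1% of all protein-coding genes. By this wider rule HoxD had 7 of 9, HoxA 6 of 11, HoxB 2 of 10 and HoxC 2 of 9. The place of HoxD among the clusters thus depended on the rule, and HoxB had the lowest share under these 2 rules. From the start of the gene record alone HoxD was lowest, with 0 genes against 1 in HoxB.

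Genes with a CpG-rich start mostly have a region at a start in this set, and about as many Hox genes have a CpG-rich start as lack one. A start was called CpG-rich from the 1000 bases around the start of the gene record. These had to hold at least 55% G and C and at least 0.6 of the CpG that their base content would give. This held for 20 of the 39 Hox genes (51.3%), 2 of the 10 in HoxB among them, and 8426 of all protein-coding genes (38.4%). Of the latter, 73.7% had a promoter region and 95.3% a region within 1000 bases. Of the 20 Hox genes, 5 had a promoter region (25%) and 11 a region within 1000 bases (55%), so 9 had none by either rule. Hoxa7 is among the 9, though its record start lies inside its 271-base region, because regions were sought at basic-set starts. By cluster, 6 of 7 CpG-rich HoxD genes had a region within 1000 bases. In HoxA it was 3 of 6, in HoxB 1 of 2 and in HoxC 1 of 5. The counted regions of Hoxd3 and Hoxd4, among the 6, were centred 26961 and 15520 bases from the record starts scored for CpG.

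Other families were set beside the Hox genes by symbol. Of 44 Fox genes, which encode forkhead factors, 25 had a promoter region (56.8%), and of 19 Sox genes, which encode HMG-box factors, 8 had one (42.1%). Within 1000 bases the counts were 31 of 44 (70.5%) and 14 of 19 (73.7%), against 17 of 39 for Hox. Among genes with a CpG-rich record start, 24 of 30 Fox genes (80.0%) and 12 of 15 Sox genes (80.0%) had a region within 1000 bases. Keratin genes (Krt), clustered like the Hox genes but without CpG-rich starts, had a promoter region at 11 of 49 (22.4%). Having any assigned region did not set Hox genes apart: counted with the nearest start among all protein-coding genes, 28 of 39 had one (71.8%), against 68.4% of all protein-coding genes.

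**Figure D4:**
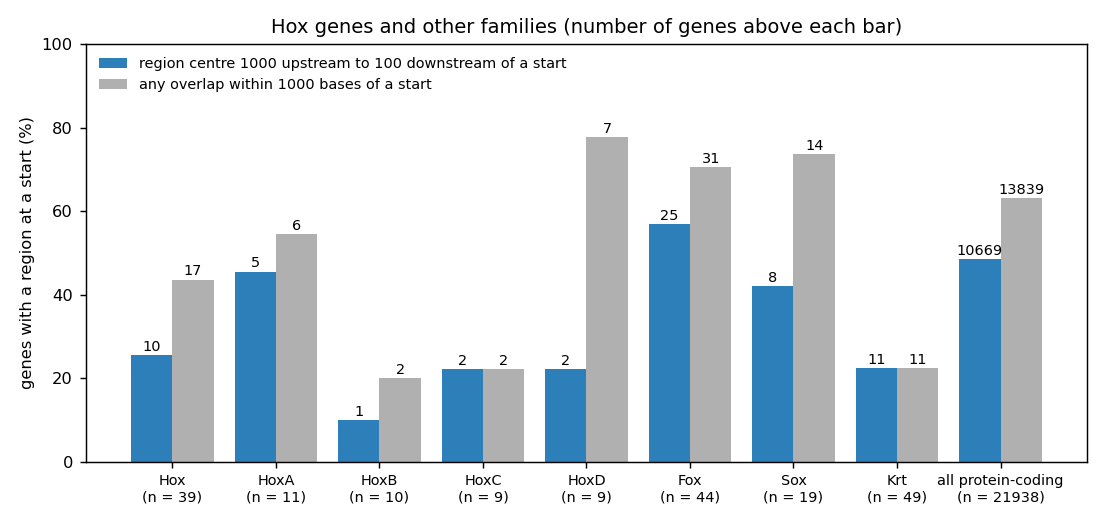
Bars show the percentage of genes (y axis) with a promoter region (blue) and with any region overlapping the 1000 bases on either side of a start (grey), for all Hox genes, each cluster, Fox, Sox and Krt genes and all protein-coding genes, with the number of genes above each bar. Hox genes reach 25.6% and 43.6%, below the 48.6% and 63.1% of all protein-coding genes, while HoxD reaches 77.8% by the wider rule.

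The median width of the Hox promoter regions was 306 bases (95% order-statistic interval 99 to 667, n = 10). The median was 509 over 10681 promoter regions of all protein-coding genes and 616 over the 6122 of genes with a CpG-rich record start. The interval of the Hox median holds the first of these values and the second, and 10 regions cannot place it more closely. The other 29 Hox regions had a median of 166 bases (interval 135 to 266), beside 178 over the 46443 regions at no protein-coding promoter. Over all 39 the median was 178 bases (interval 141 to 271), beside 212 over the whole set. By cluster the medians of the assigned regions were 392.5 bases in HoxD (interval 105 to 455, n = 10), 229 in HoxA (142 to 383, n = 15), 172 in HoxC (91 to 630, n = 8) and 104 in HoxB (75 to 234, n = 6), with overlapping intervals. At least 200 bases were reached by 9 of 15 regions in HoxA, 7 of 10 in HoxD, 2 of 8 in HoxC and 1 of 6 in HoxB.

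**Figure D5:**
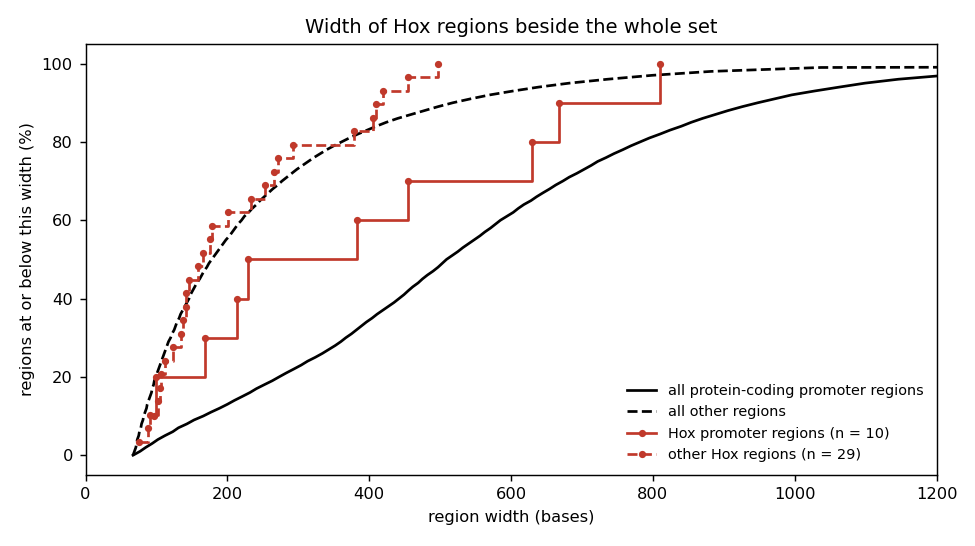
The curves give the percentage of regions (y axis) at or below a width in bases (x axis) for Hox regions (red) and the whole set (black), at promoters (solid) and elsewhere (dashed). The Hox promoter curve (n = 10, median 306) lies to the left of all promoters (median 509), and the other Hox regions (n = 29, median 166) run close to the rest (median 178).

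By position, 10 of the 39 regions were Hox promoter regions, 4 were at the promoter of another gene, 14 overlapped an exon, 7 lay in introns and 4 between genes. Base content differed by position. The median share of G and C was 65.3% over all 39, 65.5% at the 10 Hox promoters and 65.3% at the other 29, beside 65.3% at all protein-coding promoter regions and 52.2% at regions away from promoters. The median observed-to-expected CpG ratio was 0.828 at the 29 Hox regions away from Hox promoters, beside 0.787 at all promoter regions and 0.259 away from promoters. Within those 29, the 18 over an exon or at the promoter of another gene had medians of 68.5% and 0.894, and the 11 in introns or between genes had 56.6% and 0.672. The spread was wide: the Hoxa2 promoter region had 51.4% G and C and a ratio of 0.479, and the coding-exon region of Hoxb4 66.7% and a ratio of 1.2. The DNA of the whole cluster spans had 48.8% to 49.7% G and C and a CpG ratio of 0.344 to 0.467, below the medians of the Hox regions.

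Short motifs were then looked for on both strands in the 300 bases around the centre of each region. In regions narrower than 300 bases this window reaches past the ends, and a match there was still counted for the region. The core of the CTCF motif, CCANNAG followed directly by NNGGC, was found in 3 Hox regions (7.69%), beside 6.75% of all 57124 regions. CTCF is the protein that anchors chromatin loops and divides active from silent Hox DNA in the embryo. The HOX-PBX motif TGATTNAT was found in 4 (10.3%), beside 4.69% of all regions. No Hox region held both. The CTCF matches and 3 of the HOX-PBX matches are shown with the bases around them, 30 in all, 5′ to 3′ on the strand of the match, with the match in capitals, because they are the places in these regions where the letters of a cluster boundary or of Hox binding occur. The CTCF matches are at chr6:52221800-52221829 (minus strand, Hoxa7), chr6:52240532-52240561 (minus strand, Hoxa10) and chr2:74715912-74715941 (plus strand, Hoxd4).
Hoxa7: aagaaaattCCAGGAGATGGCagtgtggct
Hoxa10: tcgcagccgCCACGAGATGGCgcactcccg
Hoxd4: gagctttgtCCAGGAGGAGGCgctgtagga
The HOX-PBX matches are at chr6:52164924-52164953 (plus strand, Hoxa2 promoter region), chr15:103032888-103032917 (plus strand, Hoxc4) and chr2:74682239-74682268 (minus strand, Hoxd11 promoter region).
Hoxa2: cactgtctgttTGATTGATccaaaaaagtc
Hoxc4: ttccgcgagacTGATTTATgacgttttaca
Hoxd11: gcaattcatctTGATTGATtctggtggtaa

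Each match shown lay inside the listed region. The Hoxa10 match was centred 4 bases from the middle of a region of 88 bases, and those of Hoxa7 and Hoxd4 lay 65 and 55 bases from the middle of regions of 271 and 201 bases. The Hoxd4 region is at the start of the antisense RNA Hoxd3os1 and inside the long Hoxd3 and Hoxd4 records. Of the other letters searched, the KLF motif GGGNGTGG was in 6 Hox regions (15.4%; 15.1% of all regions). The posterior HOX motif CCAATAAA, the MEIS motif TGACAGNT, the ETS motif CCGGAAGT and the spaced retinoic acid element were in none, where 0.884%, 6.65%, 1.95% and 0.123% of all regions held them. A match is a run of letters and not a bound site, and counts of 0 to 6 in 39 regions are too small to read a difference from.

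Noncoding genes run through the clusters. Of 47 with a start in the 4 spans, 7 had a promoter region (14.9%), beside 8.23% of all 33475 genes of the annotation that are not protein-coding. Of these 7, 3 were among 19 short records of the class misc_RNA and 4 among 21 long noncoding genes and pseudogenes. Among the 7 were Hoxaas2 (383 bases, the region of Hoxa2), Gm15050 (419), Hoxd3os1 (201), Gm28793 (406, the region of Hoxd9) and Gm27280 (667, the region of Hoxa13). Each of these 5 shared its region with the nearby coding gene's assignment, so the region cannot be given to one of the pair. Hotair, made from HoxC and known for its link to Polycomb, had a region 959 bases from the end of its record and none at its start. Hottip, at the posterior tip of HoxA, had its nearest region 1740 bases away. Haglr, whose record starts 84 bases from Hoxd1 in the opposite direction, had a region centred 215 bases upstream of that start. It is not among the 7, because promoter regions were called on basic-set transcript starts only.

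The clusters also hold the genes of the miR-10 and miR-196 families, which are known to target Hox messages. None of the 7 miRNA genes in the spans had a promoter region, beside 8.67% of all 2202 miRNA genes. The starts used are those of the short hairpin records, so starts of longer transcripts that carry a hairpin were not examined. A count over 7 genes is also too small to read a difference from. The hairpin of Mir196b lay 139 bases from the 292-base region of Hoxa9, that of Mir10b 1240 bases from a Hoxd4 region, that of Mir10a 2835 bases from the Hoxb4 region, those of Mir196a-1 and Mir196a-2 6434 and 6647 bases from the nearest region, and that of Mir615 15390 bases. The mature sequences, from RefSeq on GRCm38.p6, are given 5′ to 3′ with the seed (bases 2 to 8) in capitals, because the seed shows which members of different clusters share targets: miR-10a and miR-10b, from HoxB and HoxD, have 1 seed, and miR-196a and miR-196b, from HoxB, HoxC and HoxA, have another.
miR-10a-5p: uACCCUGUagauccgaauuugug
miR-10b-5p: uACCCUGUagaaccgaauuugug
miR-196a-5p: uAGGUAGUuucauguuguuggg
miR-196b-5p: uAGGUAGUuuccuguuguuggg

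Cofactors and chromatin regulators of the clusters had promoter regions more often than the Hox genes did. Among the TALE cofactors, which bind DNA with Hox proteins, 7 of 9 had a promoter region, the widest at Pbx3 (1567 bases) and Pknox1 (1353), and Pbx4 and Pknox2 had none. Polycomb genes had one at 9 of 15, and among those without one were Eed, Ezh2, Ring1 and Rnf2. All 15 Polycomb genes and all 9 TALE genes had a region within 1000 bases of a start. Trithorax and demethylase genes had a promoter region at 7 of 8, the exception being Kdm6b. Retinoid genes had one at 9 of 10, including Rarg, a retinoic acid receptor (1095 bases), and Cyp26b1, which degrades retinoic acid, had none. These shares of small lists stand beside 48.6% of all protein-coding genes. The Cdx and Evx genes, homeobox relatives that act upstream of or beside the Hox clusters, had a promoter region at 0 of 5 and a region within 1000 bases at 2 of 5 (Cdx2 and Cdx4). Among 11 genes of the third pharyngeal pouch and early thymus, 7 had a promoter region, the widest at Eya1 (750 bases) and Fgfr2 (730), and among those without one were Bmp4, Fgf8 and Gcm2.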

How the data were processed

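ATAC-seq was performed by the authors on 8 samples of sorted mTECs in 4 groups of 2 biological replicates, per the labels. Reads were handled by the authors with tools that the submitters' processing notes list as FastQC, Bowtie2, SAMtools, MACS2, bedtools and HOMER on mm10. The deposited table lists 57124 consensus regions with start, end and width in bases, and counts from featureCounts 2.0.3, per the file header. Broad MACS2 peaks were merged by the authors into the consensus set with bedtools, with no minimum number of samples stated. The 8 count columns carry numbers that match no label, so samples were not compared. These columns were not used in any step, so depth, its precision and the signal of each region are not given.

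From the deposited positions, the regions were joined to GENCODE M21 with Python 3.11.15, numpy 2.4.6, pandas 2.3.3 and matplotlib 3.10.9. Regions overlapping a Hox gene body plus 5 kb were assigned to the nearest gene start. Promoter regions were called on starts of transcripts in the basic set (centre from 1000 bases upstream to 100 downstream). Medians have 95% order-statistic intervals. The steps that assign regions to genes and call promoter regions were tested on simulated positions against direct enumeration. Sequence was read from the mm10 genome. All 39 Hox genes were counted. Of the other lists, the widest promoter regions and members without one were named. Some genes and sequences are not reported here. The members and lists were chosen with earlier results of these data known. Alternatives changed the extension, the promoter rule, the minimum width and the starts used.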

Additional observations from a re-analysis of the deposited data

How the results depend on the processing

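No paired analysis was possible because no column could be tied to a replicate and nothing was tested. Of 26 recomputed values, 19 stayed within 1.5 times the first value, or, for the median width, within the spread among regions, and 7 moved. With regions of at least 200 bases, 18 Hox genes (against 29) had an assigned region and 19 regions (against 39) remained, with a median width of 383 bases. Under the same minimum the density per 100 kb fell to 7.81 in HoxA, 0.544 in HoxB and 1.59 in HoxC, and HoxD had 6.55, beside 1.14 in the genome at the same minimum, so HoxB was below the genome and the other 3 clusters above it. This follows from the removal of narrow regions. With any overlap within 1000 bases of a start, 17 Hox genes had a promoter region in place of 10, a wider window by construction. Use of the gene record's own start, chosen after seeing the data, gave 8 Hox genes (20.5%) against 36.7% of all protein-coding genes. Of these 8, HoxA held 4, HoxC 3, HoxB 1 and HoxD 0, so HoxB was not the lowest cluster by that start. Under all 5 promoter rules run on all genes the Hox share was below that of all protein-coding genes. Width depends on the peak caller, on depth and on how peaks were merged, which could not be separated here.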
